A study of Homo sapiens with 23 samples.

Results

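The cytosolic ribosomal protein genes are the 84 genes of the deposited table whose symbols name a protein of the cytosolic ribosome, of 27589 genes in all. They were chosen by biotype (protein coding) and symbol: RPS or RPL followed by a number, with RPSA, RPLP0, RPLP1 and RPLP2, without the S6 kinases and without genes of chromosome Y. A mean of at least 10 was required and removed none. Of these, 32 belong to the small subunit and 52 to the large subunit. The genes were measured by poly(A) RNA-seq in xenografts of SCC-13, an established line of human cutaneous squamous cell carcinoma. All tumours grew under the skin of the flank in NCG mice, which carry edited Prkdc and Il2rg alleles and lack functional lymphocytes, and were harvested on day 26. The cells were either wild type (WT) for human Flower (hFWE, gene symbol CACFD1) or hFWE knockout (KO). The 12 WT tumours came from the lines 5B2, 6C9 and 6C10 with 4 tumours each, and the 11 KO tumours from 2F7 with 3 tumours and from 2B8 and 1G10 with 4 each. The lines are known by these codes only, and every line has 1 genotype, so a difference between genotypes is separated from differences between lines only by 3 lines on each side. Whether each tumour had its own mouse is not stated, so the p-values rest on the spread between tumours, which may be partly technical.

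Ribosomal proteins clothe and stabilise the ribosomal RNA, and each ribosome needs nearly all of them in equal number, so their genes are usually expressed as a block. In human cells most of their mRNAs begin with a run of pyrimidines, the terminal oligopyrimidine or TOP motif, through which LARP1 and the mTOR pathway control their translation. Several genes have a close copy elsewhere in the genome with a restricted tissue pattern, and the family has left a very large number of processed pseudogenes. Growing basal keratinocytes and carcinoma cells make ribosomes at a high rate.

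Library depth set some tumours apart. The smallest of a library's 10 most frequent values was taken as 1 read. By this estimate 21 libraries held 13082214 to 22093213 assigned reads, against 7011069 in WT 6C9 specimen 5532 and 2037751 in WT 6C9 specimen 5533. Specimen 5533 had 17582 genes above 0, and its median correlation with the other libraries was 0.763. CACFD1 itself ranged from 286 to 432 in WT tumours, with a median of 370, and from 167 to 370 in KO tumours, with a median of 277, so KO tumours were lower on the whole and the groups overlapped. All 10 squamous keratinocyte markers were measured, and their summed value was 707181 to 1339488 in WT and 950721 to 1288036 in KO tumours. In whole tumours, fewer cells of a type and less RNA per cell cannot be told apart. Results that rest on specimens 5532 and 5533 are given with and without them.

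In the tumours that stood apart, nearly all of the 84 genes were displaced the same way. For each gene, its log2(value + 1) in a tumour was set against its own mean over the 21 deeper tumours, and the median of these deviations over the 84 genes describes the tumour. In the WT tumours of line 5B2 (specimens 5526 to 5529) the median was 0.02, 0.14, 0.19 and -0.02. Line 6C10 (specimens 5534 to 5537) gave 0.27, 0.12, 0.07 and 0.02. These 8 tumours lay close together. Line 6C9 did not, with -0.04 in specimen 5530, -0.50 in 5531, 0.48 in 5532 and 2.21 in 5533. The KO tumours of line 2F7 were also spread widely, with -0.55 in specimen 5538, -0.07 in 5539 and 0.33 in 5540. Line 2B8 (specimens 5542 to 5545) gave 0.00, -0.12, -0.05 and 0.19, and line 1G10 (specimens 5546 to 5549) gave 0.03, -0.09, 0.14 and -0.05. In specimen 5531 none of the 84 genes lay above its mean and in 5538 only 4 did, where 50.8% and 50.4% of all tested genes lay above theirs. In specimen 5540 the number above was 83 (49.9% of all tested genes), in 5532 it was 81 (49.0%) and in 5533 it was 83 (45.1%).

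**Figure D1:**
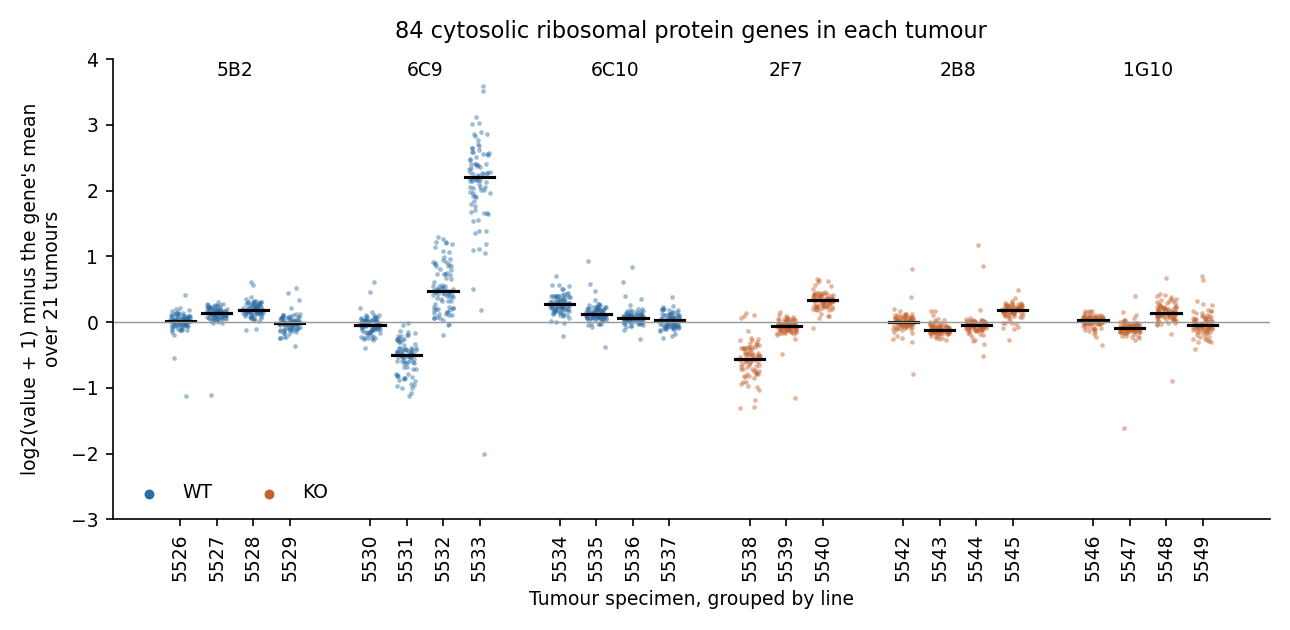
Each point is 1 of the 84 genes in 1 tumour, as log2(value + 1) minus that gene's mean over the 21 tumours other than specimens 5532 and 5533, and black bars are medians. The genes of most tumours sit together, and the medians were -0.55 and -0.50 in specimens 5538 and 5531 and 2.21 in specimen 5533. The spread was widest in specimens 5533 and 5532, where 27 and 13 of the 84 genes lay more than 0.5 from the tumour's median.

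Over the 21 deeper tumours the SD of the tumour medians was 0.21 on the log2 scale, and the SD of the genes about their own tumour's median was 0.14 in the median tumour. The first value rests on specimens 5531 and 5538: over the other 19 tumours it was 0.12. In tumours with a median near 0 the genes split, with 44 above and 40 below their means in specimen 5542, 47 and 37 in 5537, and 51 and 33 in 5526. The SD of tumour medians within lines was 0.24, about the same as the 0.21 over the 21 tumours. As a share of each tumour's whole signal, the 84 genes took 2.42% to 4.19% in the 21 deeper tumours, and 10.3% in specimen 5533. The mitochondrially encoded protein genes took 4.54% of the signal in specimen 5533 and 1.11% to 2.78% in the 21 deeper tumours. Line means of the tumour medians were 0.08 ± 0.09 (SD, n = 4) in 5B2, 0.53 ± 1.18 (SD, n = 4) in 6C9, 0.12 ± 0.11 (SD, n = 4) in 6C10, -0.10 ± 0.44 (SD, n = 3) in 2F7, 0.01 ± 0.13 (SD, n = 4) in 2B8 and 0.01 ± 0.10 (SD, n = 4) in 1G10. Without specimens 5532 and 5533, line 6C9 went from the highest mean to the lowest, at -0.27 ± 0.32 (SD, n = 2).

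KO tumours had lower mean ribosomal protein transcripts than WT tumours, and no single gene of the 84 passed the test. In limma with the line as a random block, the log2 difference KO minus WT had a median of -0.28 over the 84 genes and 0.03 over all 16063 genes tested. The consensus correlation within lines was 0.0077, so the p-values treat the tumours nearly as independent. All 84 differences were below 0, as were 45.8% of those of all genes. The 84 genes move together, so this count does not stand for 84 separate results. With Benjamini-Hochberg adjustment over all genes, 0 of 84 were called (0.00623% of all genes were called), and 1 of 84 had an unadjusted p under 0.05, where 12.5% of all genes had one. That gene was RPL3, which shapes the peptidyl transferase centre. Its value was 15076 at the lowest, 18238 at the median and 23953 at the highest in WT tumours, and 12759, 16344 and 19280 in KO tumours. The groups overlapped over most of their range. Its log2 difference was -0.19 with SE 0.09, and limma gave an unadjusted p of 0.0418 and an adjusted p of 0.385. In the limma fit without specimens 5532 and 5533 the unadjusted p of RPL3 was no longer under 0.05.

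Most of the difference went with specimens 5532 and 5533. Without specimen 5533 the median difference over the 84 genes was -0.11, with 76 of 84 below 0. Without both it was -0.05, against 0.00 for all genes, with 64 of 84 below 0 (50% of all genes). In that limma fit 0 of 84 were called (0.0% of all genes), and 0 of 84 had an unadjusted p under 0.05, against 10.5% of all genes. With all of WT line 6C9 left out the median was -0.13, with 81 of 84 below 0 (49.2% of all genes). Limma then called 0 of 84 (0.00627% of all genes), and 5 of 84 had an unadjusted p under 0.05 (15.7% of all genes). Across all tumours, 50 of the 84 genes had all 3 KO line means below all 3 WT line means, as did 8.87% of all genes, and 0 had them all above (9.77% of all genes). Without the 2 specimens all were below for 1 gene, RPL7 (5.53% of all genes), and above for 0 (5.82%). Of the 84 genes 0 had every KO tumour below, and 0 above, every WT tumour, and no tested gene did (0.0%). With library quality weights, under which limma called 4.59% of all genes, 0 of 84 were called, 6 had an unadjusted p under 0.05 (21.4% of all genes) and the median difference was -0.12.

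**Figure D2:**
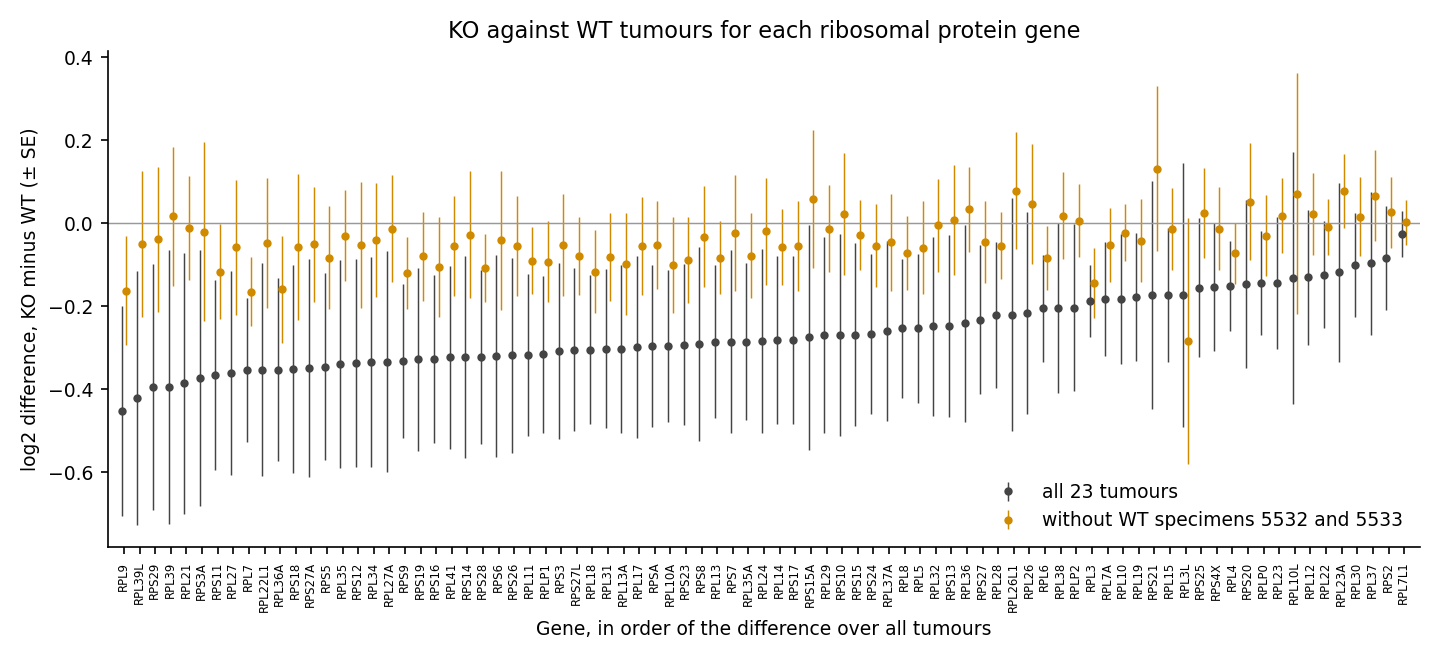
Points are the fitted log2 differences, KO minus WT, of 83 of the genes with their standard errors, for all 23 tumours and without WT specimens 5532 and 5533, in order of the first. Every point lies below 0 with all tumours in, and all but RPL3L lie nearer to 0 without the 2 specimens.

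The largest fitted differences include those of RPL9, RPL39L, RPS29 and RPL39, and none of them passed the test. RPL9, a large subunit protein, was 455 at the lowest, 742 at the median and 4706 at the highest in WT tumours, and 385, 618 and 866 in KO tumours. The WT maximum is specimen 5533, and without it and 5532 the highest WT value was 893, close to the KO maximum. The log2 difference of RPL9 was -0.45 with SE 0.25 (limma adjusted p = 0.454) and -0.16 with SE 0.13 (adjusted p = 0.702) without the 2 specimens. RPS29, a small zinc-binding protein of the small subunit, had WT values of 2113, 4868 and 36182 (lowest, median, highest) and KO values of 2254, 4457 and 6040. The difference of RPS29 was -0.39 and shrank to -0.04 without the 2 specimens. RPL39, a very small protein at the exit tunnel, had WT values of 946, 2077 and 21609 and KO values of 989, 1966 and 2806. Here -0.39 became 0.02, so little of the difference was left. RPL39L, the close copy of RPL39, went from -0.42 to -0.05. No gene of the 84 had a positive difference over all tumours.

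The genes nearest to no difference are of several kinds. RPL7L1, a factor of large subunit assembly related to RPL7, had WT values of 960, 1088 and 1198 and KO values of 885, 1056 and 1193, and a log2 difference of -0.03 with SE 0.06. It was also the steadiest member, with 1198 in specimen 5533 and 1043 in 5531, so it did not share the swings of the block. RPS2, at the mRNA entry of the small subunit, had a difference of -0.08, and RPL37 one of -0.10. Without specimens 5532 and 5533 the range over the 84 genes was from -0.28 for RPL3L to 0.13 for RPS21.

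Genes with well-known roles had differences near those of the block. RPS6, the small subunit protein phosphorylated by S6 kinases downstream of mTOR, had WT values of 7458, 14971 and 63761 and KO values of 6482, 13087 and 17549. Its log2 difference was -0.32 with SE 0.24, and -0.04 with SE 0.17 without the 2 specimens. RPLP0, RPLP1 and RPLP2 form the stalk that recruits translation factors, and their differences were -0.14, -0.32 and -0.20, or -0.03, -0.09 and 0.01 without the 2 specimens. RPLP0 had WT values of 9230, 13545 and 26650 and KO values of 9849, 12216 and 15726. For RPL5 and RPL11, which with the small ribosomal RNA of the large subunit bind MDM2 when assembly fails, the differences were -0.25 and -0.32, or -0.06 and -0.09 without the 2 specimens. RPS19, the gene most often mutated in Diamond-Blackfan anaemia, had -0.33 and -0.08. RPSA, also known as a laminin receptor, had -0.30 and -0.05, and RPS3, which also has a role in DNA repair, had -0.31 and -0.05. RPS27A, made as a fusion with ubiquitin, had -0.35 and -0.05. RPL10, which is placed late on the large subunit, had -0.18 and -0.02, and RPL13A, released from ribosomes in an interferon response, had -0.30 and -0.10. None of these 12 genes had an unadjusted p under 0.05 in either limma fit.

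No KO line alone gave a called gene. Set against the mean of the WT lines, the median log2 difference over the 84 genes was -0.36 in 2F7, -0.24 in 2B8 and -0.25 in 1G10, and each comparison uses the same WT tumours. Of the 84 differences 83 were below 0 in each, as were 46.1%, 44.6% and 47.2% of those of all genes. Limma called 0 of 84 in each (0.0% of all genes), and 0 of 84 had an unadjusted p under 0.05 in each, against 2.48% of all genes for 2F7, 8.19% for 2B8 and 9.66% for 1G10. Without specimens 5532 and 5533 the medians were -0.08, 0.04 and 0.04, so 2 of the 3 changed sign. All 3 were small beside the SD of tumour medians within lines, 0.24. Each line then had 1 of 84 with an unadjusted p under 0.05 (6.14%, 11.5% and 14.4% of all genes). In that fit line 6C9 rests on specimens 5530 and 5531, and the block was low in 5531. With all of WT line 6C9 left out the medians were -0.22, -0.10 and -0.09, so the direction stayed. Below 0 were 80, 79 and 75 of 84 (51.7%, 48.1% and 49.9% of all genes). Limma again called 0 of 84 in each (0%, 0.928% and 2.21% of all genes). With library quality weights limma called 25 of 84 (29.8%) lower in 2F7, where 24.4% of all genes were called lower and 49.2% in either direction, and 0 of 84 in 2B8 (6.51%) and 1G10 (2.03%).

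Among lines of 1 genotype, no gene of the 84 was called. Limma's F test called 0 of 84 among the 3 WT lines (0.00623% of all genes) and 0 of 84 among the 3 KO lines (0.0%), and none had an unadjusted p under 0.05 (10.3% and 2.22% of all genes). Without specimens 5532 and 5533 the WT lines gave 24 of 84 with an unadjusted p under 0.05, where 15.5% of all genes had one, and again 0 were called (0.00628% of all genes), the lowest adjusted p being 0.191 for RPS20, while the KO lines gave 1 of 84 (7.55%). With library quality weights 2 of 84 were called among the WT lines, RPL36A and RPS20 (11.9% of all genes), and 10 among the KO lines (40.2%). Over the tumours without specimens 5532 and 5533, 71 of 84 genes were lowest in 6C9, and 49 were highest in 6C10 and 26 in 5B2. Line 6C9 then has 2 tumours, 5530 and 5531, and in 5531 the number of genes above their means was 0 of 84. The genes moved together there, so these counts are not separate results, and the shares over all genes were not computed. The widest ranges of line means without the 2 specimens were 1.08 on the log2 scale for RPS3A, 1.04 for RPL10L, 0.95 for RPL39L, 0.87 for RPS15A and 0.82 for RPS6. RPL10L and RPL39L rest on few reads, 17.8 to 104 and 44 to 167 per tumour. For 64 of the 84 genes the range was under 2 within-line SDs, and this share over all genes was not computed. For RPS3A, a small subunit protein at the mRNA exit, the 2 tumours of 6C9 were 2923 and 1586, and those of 6C10 were 5626, 4779, 3968 and 4045. The 2 lines did not overlap. RPS15A, a small subunit protein of the body, showed the same order, with 2974 and 1799 in 6C9 and 5083, 4045, 3911 and 3974 in 6C10. Both genes were picked for their wide ranges of line means, which favours such gaps between lines. The share of all genes with such a gap was not computed. With all tumours the widest ranges include those of RPL21 (1.13), RPL39 (1.07), RPL10L (1.04) and RPS29 (0.94).

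Levels of the genes differed by more than the tumours did. Per kilobase of coding sequence, and over the 21 deeper tumours, the median level was 10400 and 77 of 84 genes were above 1000. RPL41, which encodes one of the shortest human proteins from a coding sequence of 75 bases, was the highest at 163295 per kilobase. Its mRNA is mostly untranslated sequence, so division by coding length raises it. RPL8 followed at 41064 and RPS20 at 37143 per kilobase. RPL8 binds at the core of the large subunit and RPS20 lies in the head of the small subunit. At the low end were RPL3L at 35.5, RPL10L at 64.8 and RPL26L1 at 375 per kilobase, all copies of another member.

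The close copies were low and their parents high. RPL3L, a paralogue of RPL3 known from heart and skeletal muscle, shares 75.9% of aligned coding bases with it and had 35.5 against 14009 per kilobase. Its value was between 19.7 and 76.1 in the deeper WT tumours and between 12.4 and 72.1 in KO tumours, with no separation. In specimen 5533 it was 9.14, which is 1 read, and it was the only member below its mean there. RPL10L, an intronless copy of RPL10 known from the testis, shares 89.3% and had 64.8 against 7753 per kilobase. Its highest tumours were KO 2B8 specimen 5544 at 87.2 and 5542 at 67.4 among the deeper libraries, and its lowest KO 2F7 specimen 5539 at 16.6 and WT 5B2 specimens 5526 and 5527 at 17.0 and 17.2. RPL39L, known from the male germ line, shares 94.8% with RPL39 and stood at 538 against 12752 per kilobase. RPL26L1 shares 84.1% with RPL26 and stood at 375 against 9175. RPL22L1, a paralogue of the RNA-binding RPL22, shares 68.6% and stood at 776 against 6488.

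RPS27L and RPL7L1 came nearest to their parents. RPS27L, a target of p53, shares 77.8% with RPS27 and had 1224 against 2671 per kilobase. RPL7L1 shares 56.4% with RPL7 and had 1375 against 4097. RPL22L1 was lowest in WT 6C9 specimen 5531 at 153 and in KO 2F7 specimen 5538 at 162, the same tumours in which the block was low. Where copies are as close as RPL39L and RPL39, the sources used here do not say how reads were divided between them, so these levels are uncertain. RPL36AL falls outside the symbol rule, shares 89.9% of coding bases with RPL36A and was the higher of that pair, at 8429 against 443 per kilobase.

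Pseudogenes took part of the family's reads. The table has 619 pseudogenes named after 76 of the 84 genes, and their summed value was 26.0% to 29.7% of the sum of the 84 genes in every tumour, so this share moved little when the block moved. The share of a gene and its pseudogenes that lay in the pseudogenes was over 50% for 11 genes and under 10% for 49. It was 89.9% for RPL21, 86.6% for RPL7, 83.5% for RPL23A and 70.9% for RPS3A. The values of these genes are therefore uncertain. When each gene was summed with its pseudogenes, the median difference KO minus WT was -0.26 and limma again called 0 of 84 (0.00631% of all genes), with 0 at an unadjusted p under 0.05 (12.6% of all genes).

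Deviations of the block went with coding length, in these genes and in others. The 84 genes have a median coding length of 454.5 bases, from 75 to 1281, against 1389 for all tested protein-coding genes with a length. In specimen 5533 the median deviation was 2.35 for the 11 members under 300 bases, 2.30 for the 48 from 300 to under 600 bases, 1.92 for the 21 from 600 to under 900 bases and 0.78 for the 4 above that. Other protein-coding genes of the same classes had 1.75, 1.11, 0.50 and -0.07, and those of 1500 bases or more had -0.90. The members were thus higher than other genes of like length, and in both sets the longer classes were lower. In specimen 5538 the members had -0.58, -0.60, -0.50 and -0.31 and the other genes -0.36, -0.22, -0.12 and -0.03. Specimen 5531 gave -0.61, -0.53, -0.40 and -0.30 for members and -0.27, -0.10, -0.01 and 0.04 for the others. The low tumours thus showed broadly the reverse order of specimen 5533, with classes under 600 bases lower than those above. RPL39 and RPL21 were the highest of the members in specimen 5533, with deviations of 3.51 and 3.59, while the long members RPL3 and RPL4 had 0.51 and 1.04. The part of coding length in these shifts was not tested beyond these medians.

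**Figure D3:**
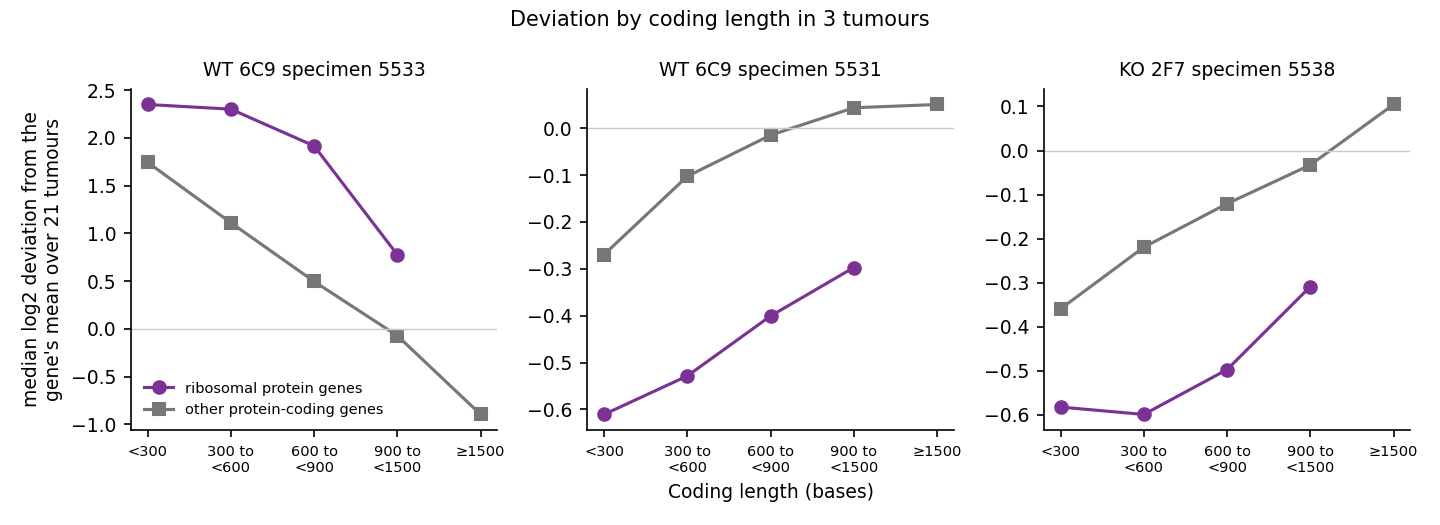
Median log2 deviation from the mean over 21 tumours, by class of coding length in bases, for the ribosomal protein genes (circles) and other tested protein-coding genes (squares) in 3 tumours, each with its own vertical scale. Classes under 600 bases lie above longer ones in specimen 5533 and below them in specimens 5531 and 5538, and the ribosomal protein genes lie beyond other genes of their class in each.

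The start sites show what most of these genes share in sequence. RefSeq promoters on GRCh38.p14 were found for 67 of the 84 genes. A start with a TOP-like tract was defined as a C followed by at least 4 more C or T bases, beginning within 5 bases of any annotated start on the gene's strand. Such a tract was found in 54 of 67 genes (80.6%), against 25.2% of all 27305 genes with a promoter. Tracts of 8 or more were found in 67.2% of the 67 genes and 6.73% of all genes. The windows below are 30 bases around the start, 5′ to 3′ on the gene's strand, with the tract in capitals. The first 6 are genes described above that have one: the most abundant (RPL41), the phosphorylated S6 (RPS6), the 2 genes highest in specimen 5533 (RPL39 and RPL21), the chromosome 20 gene (RPS21) and the gene with the lowest p (RPL3).
RPL41: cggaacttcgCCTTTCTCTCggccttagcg
RPS6: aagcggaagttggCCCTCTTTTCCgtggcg
RPL39: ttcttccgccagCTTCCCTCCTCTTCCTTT
RPL21: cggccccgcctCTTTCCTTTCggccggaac
RPS21: ggtgactagctgCTTCCTTTCTCTCTCgcg
RPL3: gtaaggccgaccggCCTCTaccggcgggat
They lie at chr12:56116618-56116647 (plus strand), chr9:19380222-19380251 (minus), chrX:119791616-119791645 (minus), chr13:27251543-27251572 (plus), chr20:62387088-62387117 (plus) and chr22:39319609-39319638 (minus). The tract of RPL39 has 22 bases in all and runs past the window, and that of RPL3 has 5.

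By this definition 13 of the 67 genes had no tract, and 3 of them are shown because they differ in behaviour: the steady assembly factor RPL7L1, the intronless copy RPL10L, and RPS29, which moved with the block.
RPL7L1: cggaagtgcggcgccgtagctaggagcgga
RPL10L: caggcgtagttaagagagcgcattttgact
RPS29: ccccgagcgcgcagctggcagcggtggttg
These windows are chr6:42879601-42879630 (plus), chr14:46651767-46651796 (minus) and chr14:49598696-49598725 (minus). Genes with and without a tract deviated alike by their medians: 2.23 and 2.25 in specimen 5533, -0.51 and -0.40 in 5531, and -0.56 and -0.53 in 5538. Annotated starts can miss the start used in these cells, so the absence of a tract says only that these letters are not in the window. In the 300-base promoters, searched on both strands, CCGGAAG was found in 35.8% of the 67 genes and 12.2% of all genes, CTTTCC in 46.3% and 30.2%, AAGATGGC in 10.4% and 3.52%, CACGTG in 7.46% and 8.77%, and TATAAA in 10.4% and 14.0%.

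RPS21, a small subunit protein, had a pattern of its own on top of the block. It is the only member on chromosome 20 (chr20:62387103-62388521, plus strand, hg38). Its value was 2594 at the lowest, 4047 at the median and 21017 at the highest in WT tumours, and 1614, 4494 and 6358 in KO tumours, and every KO tumour but the lowest lay within the WT range. Without specimens 5532 and 5533 the highest WT value was 5011, and 4 KO tumours lay above it. The median deviation of the 414 other tested genes of chromosome 20 was 0.18 to 0.36 in 8 tumours (WT 5529 and 5531, KO 5540, 5542, 5543, 5547, 5548 and 5549) and -0.33 to -0.14 in the other 15. Relative to the median of the 84 genes, RPS21 was 0.29 to 0.54 higher in 7 of those 8 tumours. The exception was specimen 5531, at -0.12. In the other 15 tumours RPS21 lay between -0.75 and 0.19 except in specimen 5532, at 0.58. The largest value below the block was -0.75 in KO specimen 5538. The 2 tumours in which RPS21 departed most from chromosome 20, 5532 and 5538, are among those where the block was displaced.

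**Figure D4:**
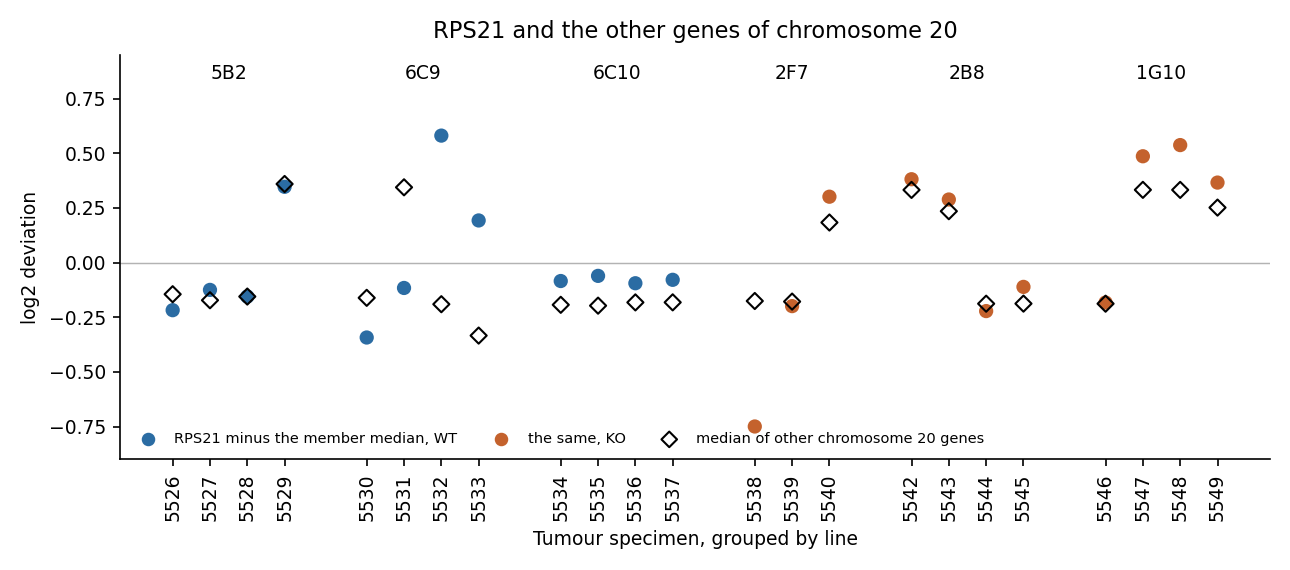
For each tumour, filled circles give the log2 deviation of RPS21 minus the median deviation of the 84 ribosomal protein genes, and open diamonds the median deviation of the other tested genes of chromosome 20. Circles and diamonds are on the same side of 0 in 20 of 23 tumours, with specimens 5531, 5532 and 5533 as the exceptions.

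Other genes of translation were compared as lists. The 18 other mRNAs with a TOP start, which include the elongation factors EEF1A1 and EEF2, the poly(A)-binding protein PABPC1 and TPT1, had a median difference KO minus WT of -0.15, and the 10 host genes of small nucleolar RNAs, such as GAS5 and SNHG1, had -0.23. The 78 genes of the mitochondrial ribosome had -0.21. The 30 genes of ribosome biogenesis, such as NCL and NPM1, had -0.05, the 14 of RNA polymerase I -0.08, the 21 initiation factors -0.06, the 20 aminoacyl-tRNA synthetases -0.01 and the 14 regulators of ribosome supply, such as MYC and LARP1, -0.01. No gene of these lists was called in either direction by limma (0.00623% of all genes). The numbers with an unadjusted p under 0.05 were 1 of 18, 1 of 10, 8 of 78, 5 of 30, 0 of 14, 3 of 21, 2 of 20 and 2 of 14 in that order, against 12.5% of all genes. Without specimens 5532 and 5533 the medians of the 8 lists, in the same order, were -0.04, -0.16, -0.06, -0.01, -0.01, -0.03, -0.02 and -0.04. The other TOP mRNAs then lay close to the initiation factors and the regulators, and 0 genes were called (0.0% of all genes).

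Some of these lists were displaced in the same tumours as the ribosomal protein genes. In specimen 5533 the median deviation was 1.60 for the mitochondrial ribosome, 1.42 for the small nucleolar RNA hosts, 1.00 for the other TOP mRNAs and 0.46 for ribosome biogenesis. In specimen 5538 these lists had -0.29, -0.49, -0.27 and -0.04, and in specimen 5531 -0.13, -0.21, -0.14 and 0.09. The other TOP mRNAs named above did not move as one in specimen 5533. EEF1A1 had a deviation of 1.81 and TPT1 one of 1.58, but PABPC1 had -0.21 and EEF2 -1.11. Of the remaining lists, specimen 5533 had 2.04 for the mitochondrially encoded genes, 0.76 for the initiation factors and 0.57 for RNA polymerase I. It had -0.32 for the aminoacyl-tRNA synthetases and -0.37 for the regulators. In the same order specimen 5538 had -0.58, -0.16, 0.06, -0.01 and 0.08, and specimen 5531 had -0.13, 0.01, 0.005, 0.03 and -0.02. Levels of further lists in these tumours are as follows. The sum of the 10 keratinocyte markers was lowest in specimen 5533 and highest in 5531. The nuclear RNAs MALAT1 and NEAT1 summed to 117071 in specimen 5538, the highest KO value, where the KO median was 53250. Their sum was 60236 in specimen 5533 and 43601 in 5531, near the WT median of 55202, and the WT maximum was in specimen 5528, where the block was not displaced. In specimen 5533 they were opposed, with deviations of 0.88 for MALAT1 and -1.63 for NEAT1. The 7 skeletal muscle markers summed to 10102 in specimen 5538, 6590 in 5533 and 49.7 in 5531, within a range of 37.2 to 10919 over WT and 167 to 10282 over KO tumours. The 8 fibroblast markers summed to 2348 in 5533, the lowest WT value, and 16754 in 5531, the highest. Adipocyte markers never summed to more than 63.9, nor erythroid markers to more than 100.5, with the maximum of each in specimen 5533. The part of these levels in the shifts of the ribosomal protein genes was not tested. Human and mouse ribosomal protein mRNAs are much alike and the handling of mouse reads is not stated, so part of these values may be host RNA.

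**Figure D5:**
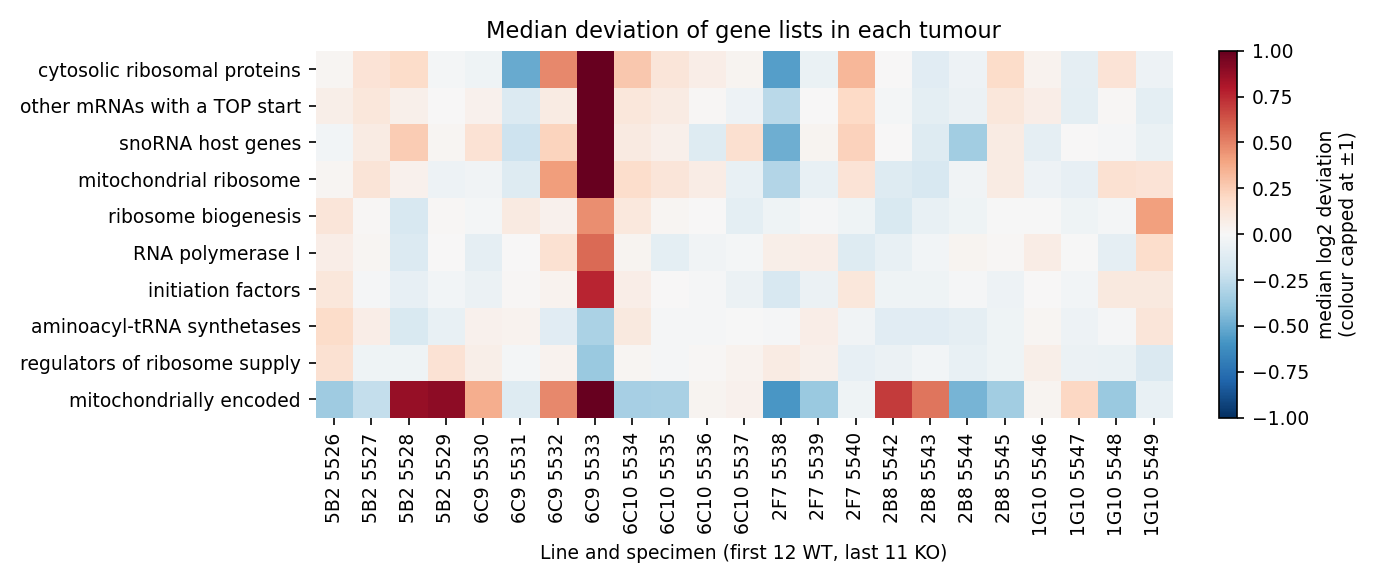
Rows are gene lists and columns are tumours, and colour is the median log2 deviation from the mean over 21 tumours, capped at 1 in each direction. The top row, the 84 ribosomal protein genes, is low in 6C9 5531 and 2F7 5538 and high in 6C9 5533, and the rows for other TOP mRNAs, small nucleolar RNA hosts and the mitochondrial ribosome follow it there.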

How the data were processed

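The authors deposited 1 table of normalized values per gene and tumour, a signal that scales with the reads assigned to the gene. STAR, DESeq2 and hg38 were used per the submitters' processing notes, without versions or roles. Libraries were directional and made from 500 ng of RNA, per the labels' protocols. With 1 read estimated as above, 70.7% to 83.9% of a tumour's values of up to 20 reads came out whole (within 0.02). The values were thus not all whole counts, and no count test was run. How the other values arose is not stated.

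Genes with a mean of at least 10 (16063) were analysed as log2(value + 1), which understates the change of low genes, with limma 3.58.1 in R 4.3.3: variance prior with a trend, random effect of line and Benjamini-Hochberg adjustment at 0.05, or a fit of 6 line means for single KO lines and F tests. All 23 tumours entered unless stated. The script was tested on simulated data with independent values and no line effect, so that test does not cover genes that move together. Coding lengths are those of GENCODE 29 principal transcripts, and promoters are from RefSeq, GRCh38.p14. Alternatives covered the pseudocount, the filter on low values, library scaling, variance settings, and leaving out tumours or lines.

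The members and lists were chosen with earlier results of these data known. The genes named are RPL3 for its p, the largest differences, the 3 highest and lowest levels, the widest ranges of line means, close copies and their parents, RPS21 on chromosome 20, and 12 members with textbook roles. RPS2, RPL37, RPL4, RPL23A and RPL7 as the gene with separate line means were added after their values were seen. Some items are not reported here.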

Additional observations from a re-analysis of the deposited data

Results flagged for a closer look

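In each line of 4 tumours, the tumour medians of the 84 genes, their share of the signal and 20 named genes were searched for a tumour standing apart. Of 110 such groups 10 were marked, where chance marks about 1 in 20 of independent groups. These groups share tumours and genes that move together, and some genes were named for extreme values. The number marked therefore cannot be read as an excess over chance. WT 6C9 specimen 5533 was marked for RPL9 at 4706 (455 to 1101 in the other tumours of the line), for RPL26L1 at 1313 (112 to 215) and for RPL21 at 5790 (324 to 843). WT 6C10 specimen 5534 was marked for RPS29 at 5908 (4797 to 4884), RPL41 at 14759 (12610 to 12949) and RPS15A at 5083 (3911 to 4045). KO 1G10 specimen 5548 was marked for RPL41 at 14388 (11306 to 11486) and for a low RPL10L of 20.1 (35.0 to 37.1). KO 2B8 specimen 5545 was marked for RPL9 at 687 (606 to 618) and RPS6 at 16132 (12676 to 13197).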

How the results depend on the processing

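The median difference KO minus WT was -0.28 with all tumours and -0.05 without specimens 5532 and 5533. Moves of a median are given below where they exceed the SD of tumour medians within lines, 0.24, a tolerance nearly as large as that difference, so smaller moves do not show stability. The median difference KO minus WT moved to -0.01 when libraries were rescaled to the members' own median, which removes any common shift by construction, with all tumours (-0.0147) or without specimens 5532 and 5533 (-0.0137). For line 2F7 the median moved to -0.076 without the 2 specimens, to -0.105 with library quality weights and to 0.02 when rescaled to the members' median with (0.0164) or without (0.0196) the 2 specimens. For 2B8 and 1G10 it moved to 0.04 without the 2 specimens (0.0412 and 0.0374). Library quality weights called 25 members in line 2F7, 2 among WT lines (RPL36A and RPS20) and 10 among KO lines, where 49.2%, 11.9% and 40.2% of all genes were called; the cause was not tested. Rescaling to the members' median and sums with pseudogenes were chosen after seeing the data.

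With each tumour left out in turn (23 fits), 0 members were called in any comparison. The median difference ran from -0.37 (without 5531) to -0.11 (without 5533) for KO against WT, from -0.58 (without 5540) to -0.11 (without 5538) for 2F7, from -0.35 (without 5531) to -0.07 (without 5533) for 2B8 and from -0.37 (without 5531) to -0.05 (without 5533) for 1G10. No paired analysis was possible because the specimen numbers are not shared between groups. Depth limits the lowest members: in specimen 5533 RPL3L had 1 read and RPL10L 16.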
